A study of Homo sapiens with 12 samples.

Results

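FABP5 and 9 genes of fatty acid uptake and oxidation were followed through erlotinib treatment of PC9 cells: FABP4, CD36, CPT1A, CPT2, ACADM, ACADVL, HADHA, PPARGC1A and PDK4. They are 10 of the 62754 gene rows of the deposited count table, found by gene symbol. FABP5 was chosen by its measured level after 28 days of drug, which was low, so its 28-day values are described here without a test. The other 9 have known roles in the pathway, and were chosen with results of these data already known. PC9 is a human lung adenocarcinoma line that depends on a mutant EGFR, and erlotinib inhibits the EGFR kinase. Cells with wild-type TDP1 were sampled without drug (untreated WT) or at one of 2 times during exposure to erlotinib at 1 µM. Those taken at 7 days are called drug-tolerant cells (DTC), and those taken at 28 days drug-tolerant expanded cells (DTEC). A TDP1 knockout line called KO2 was sampled without drug (KO). TDP1 encodes an enzyme that removes topoisomerase I trapped on DNA. Each group had 3 cultures, split from a common flask of a subclonal PC9 line and then grown apart, and the knockout is represented by 1 line. P-values therefore measure the spread between such cultures.

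Fatty acid-binding proteins carry long-chain fatty acids through the cytosol, and FABP5 is the epidermal form, found in many epithelia and carcinomas. For oxidation, fatty acids are joined to coenzyme A, loaded onto carnitine at the outer mitochondrial membrane by CPT1, moved across the inner membrane and released there by CPT2. Acyl-CoA dehydrogenases and the mitochondrial trifunctional protein then shorten the chain by rounds of beta-oxidation. PPAR nuclear receptors with their coactivators, among them PGC-1 alpha (the product of PPARGC1A), drive transcription of many of these genes. PDK4 phosphorylates and inhibits pyruvate dehydrogenase, which limits the entry of glucose carbon into the citric acid cycle.

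The libraries held 25572691 to 38373679 estimated counts. Levels are given in CPM, a gene's count relative to its library total after scaling of the totals by the trimmed mean of M-values (TMM) method, and 3 counts equal 0.0824 to 0.115 CPM. Changes are log2 fold changes with their standard error (SE), ± marks the SD over 3 libraries, and a gene is called changed at an adjusted p under 0.05. Of the 10 genes, 7 had enough counts to be tested, and FABP4, CD36 and PPARGC1A did not. DTC replicate 1 stood apart from DTC replicates 2 and 3 over all genes (chi-square per gene of 144 and 88.9, against 20.7 between replicates 2 and 3). Untreated WT replicate 1 also differed more from replicates 2 and 3 (29.9 and 20.6) than these did from each other (5.78). DTEC replicates 1 and 3 differed by 58.8. Mitochondrially encoded RNA took 4.43 to 5.41% of the counts in DTC and 1.82 to 2.78% in the other 9 libraries, and its part in the results below was not tested. TDP1 itself was at 25.1 to 28.1 CPM in untreated WT, 10.1 to 11.3 CPM in KO, 12.7 to 15.7 CPM in DTC and 25.4 to 28.4 CPM in DTEC, with a log2 fold change of -1.29 in KO (SE 0.11, adjusted p = 1.31e-05). Keratins, EPCAM and CDH1 marked the cells as epithelial in every library. Summed with NKX2-1, these markers stood at 10794 to 11392 CPM in untreated WT, at a lower 6293 to 7277 CPM in DTC and at 9276 to 12151 CPM in DTEC. KRT8, KRT18, KRT19 and EPCAM were below untreated WT in all 3 DTC libraries. KRT7 and CDH1 in DTC overlapped untreated WT, and NKX2-1, at a very low level, lay above it. The part of this difference in the results was not tested. NKX2-1, a marker of many lung adenocarcinomas, did not exceed 0.442 CPM.

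FABP5 stood at 43.1, 40.0 and 42.4 CPM in the 3 untreated WT libraries. It was at 24.0, 24.8 and 19.2 CPM in KO. After 7 days of erlotinib it was at 9.13, 15.0 and 13.8 CPM. After 28 days it was at 1.98, 3.93 and 3.96 CPM. The order was untreated WT, KO, DTC and DTEC from high to low, and no 2 neighbouring groups overlapped. The low end of this order follows from the choice of FABP5 by its 28-day level. The share of all genes with groups separated in this way is not given here. The group means were 41.8 ± 1.65, 22.7 ± 3.01, 12.6 ± 3.09 and 3.29 ± 1.14 CPM, so the DTC mean was 30.2%, the KO mean 54.3% and the DTEC mean 7.87% of that in untreated WT.

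In DTC the log2 fold change of FABP5 against untreated WT was -1.72 (SE 0.214, adjusted p = 7.86e-06, edgeR quasi-likelihood test), and all 3 DTC libraries lay below all 3 untreated WT libraries. Of all 17115 genes tested, 33.3% were called lower in this comparison. Without DTC replicate 1, the lowest of the 3, the change was -1.50 (adjusted p = 1.51e-05). In DTEC the log2 fold change was -3.67 against untreated WT and -1.95 against DTC, both given as descriptions because the 28-day level chose the gene. The untreated WT libraries took part in that choice as well, so the DTC and KO comparisons are not fully separate from it. In these bulk libraries fewer cells with a transcript and less of it per cell cannot be told apart.

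**Figure D1:**
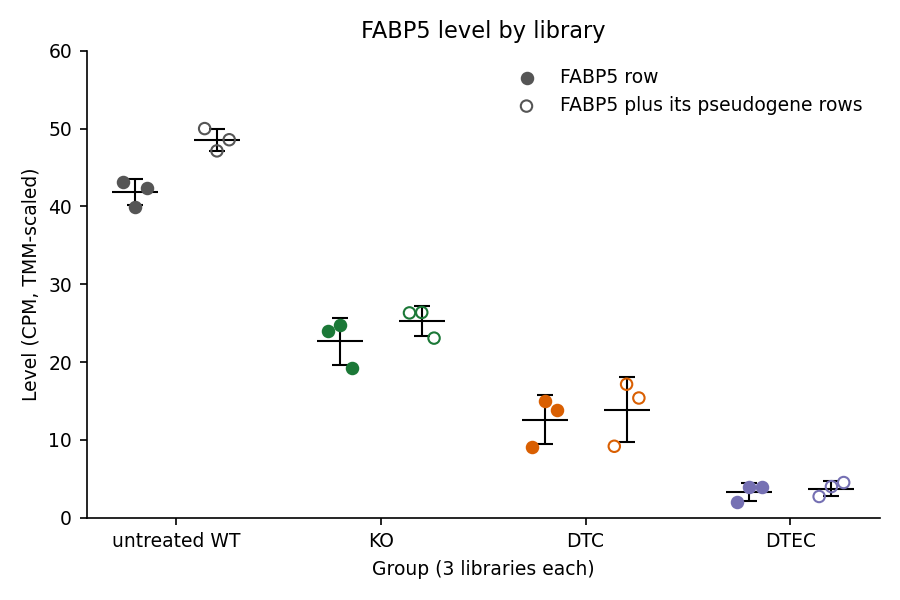
FABP5 level in CPM (vertical axis) in each of the 3 libraries of 4 groups (horizontal axis), for the FABP5 row alone (filled) and with its pseudogene rows added (open); lines are means and bars the SD. The 3 DTEC libraries lie between 1.98 and 3.96 CPM on the FABP5 row, below all 3 DTC libraries, and the order of the groups is the same with the pseudogenes added.

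The FABP5 row shares reads with a processed pseudogene. FABP5 lies on chromosome 8 (81280363 to 81284777, plus strand, GRCh38), and FABP5P7 lies on chromosome 11 (59781318 to 59781722, minus strand). The 405-base FABP5P7 transcript was identical to an 851-base FABP5 transcript over all 405 aligned bases. Estimated counts of FABP5 were whole numbers in 2 of 12 libraries (within 0.005), whereas FABP5 and FABP5P7 together summed to a whole number in 12 of 12 (within 0.01). The rows thus share reads, and FABP5P7 received 11.6 to 14.7% of the sum in untreated WT, 4.10 to 14.9% in KO, 0 to 11.6% in DTC and 0 to 24.0% in DTEC. Of 16 FABP5 pseudogene rows, 13 were at 0 in every library, and FABP5P3 and FABP5P9 reached 21 and 4 counts.

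Adding these rows to FABP5 gave 48.6 ± 1.43 CPM in untreated WT, 25.3 ± 1.89 in KO, 13.9 ± 4.18 in DTC and 3.76 ± 0.922 in DTEC. By this sum the DTC mean was 28.7% and the DTEC mean 7.75% of that in untreated WT. The DTC change was -1.80 (SE 0.198, adjusted p = 2.08e-06), close to that of the FABP5 row alone.

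The untreated knockout line also had less FABP5. The log2 fold change in KO was -0.88 (SE 0.208, adjusted p = 0.0287), with 3 of 3 KO libraries below all untreated WT libraries, in a comparison where 1.55% of all genes were called lower. With the pseudogenes summed it was -0.94 (adjusted p = 0.0128). The call was lost when any 1 of the 3 KO or 3 untreated WT libraries was left out, with adjusted p values of 0.074 to 0.165 and changes of -0.95 to -0.75. The untreated WT libraries also took part in the choice of FABP5, so this test is not fully separate from that choice.

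Of 10 neighbours of FABP5 on the chromosome 6 were tested. In DTC 3 were called higher and 1 lower, with 5 higher and 0 lower when libraries were scaled by total counts alone, and in DTEC 2 were called higher and 1 lower. Over all genes 67.3% were called in DTC and 52.3% in DTEC. With total counts alone 8008 of 17115 genes were called higher in DTC and 3702 lower. PAG1, a membrane adaptor of Src family kinases, rose by 1.19 in DTC (SE 0.254, adjusted p = 0.00084). ZNF704 fell by 0.64 on the log2 scale in DTC (SE 0.178, adjusted p = 0.00549), a call lost under total-count and upper-quartile scaling, and rose by 1.25 in DTEC (SE 0.179, adjusted p = 5.52e-05). IMPA1, which encodes an inositol monophosphatase, fell by 0.96 in DTEC (SE 0.105, adjusted p = 4.42e-06). FABP9, FABP12 and PMP2, the fatty acid-binding paralogs in the same cluster, had 0 counts in all 12 libraries.

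No other fatty acid-binding protein was present at a comparable level. FABP1, FABP2 and FABP7 were at 0 in all 12 libraries, which allows up to 3 counts or 0.0824 to 0.115 CPM in a library, FABP3 reached 1 count, and FABP4, the adipocyte form, reached 3 counts. In the list of 14 related lipid-binding proteins 4 were tested, and 3 were called higher in DTC, beside 34.0% of all genes. CRABP2, a retinoic acid carrier of this protein family, rose from 36.4 ± 0.953 to 57.6 ± 13.7 CPM (0.66, SE 0.141, adjusted p = 0.000841). FABP6, the ileal bile acid-binding protein, was also called and is named here after its values were seen: it was at 0.811 to 1.09 CPM in DTC and at most 0.0674 CPM in untreated WT.

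The 6 tested genes other than FABP5 took 2 courses in DTC, and the direction of the small falls depends on the scaling. The DTC, DTEC and KO comparisons share the untreated WT libraries. With TMM scaling all 6 were called in DTC, ACADVL and PDK4 higher and CPT1A, CPT2, ACADM and HADHA lower, in a comparison where 67.3% of all genes were called. Scaled by total counts alone, 2 were called, both higher, and CPT1A, ACADM and HADHA changed sign. Over all 17115 genes that scaling called 8008 higher and 3702 lower in DTC. It raised the median log2 fold change of all genes in DTC by 0.35, from 0.06 to 0.41. The 4 falls are therefore changes relative to the TMM reference. With DTC replicate 2 or untreated WT replicate 1 left out, 3 of the 6 were called. In DTEC 3 of the 6 were called against untreated WT, all higher (CPT1A, HADHA and PDK4), beside 52.3% of all genes called, 26.0% higher and 26.3% lower. Total counts alone called 5, all higher, beside 5745 of 17115 genes called higher and 3269 lower by that scaling. Between DTEC and DTC all 6 were called, 5 higher in DTEC and ACADVL lower, beside 55.4% of all genes, 28.8% higher and 26.6% lower. In KO 0 of the 6 were called at an adjusted p under 0.05 by edgeR, beside 4.32% of all genes, 2.77% higher and 1.55% lower.

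**Figure D2:**
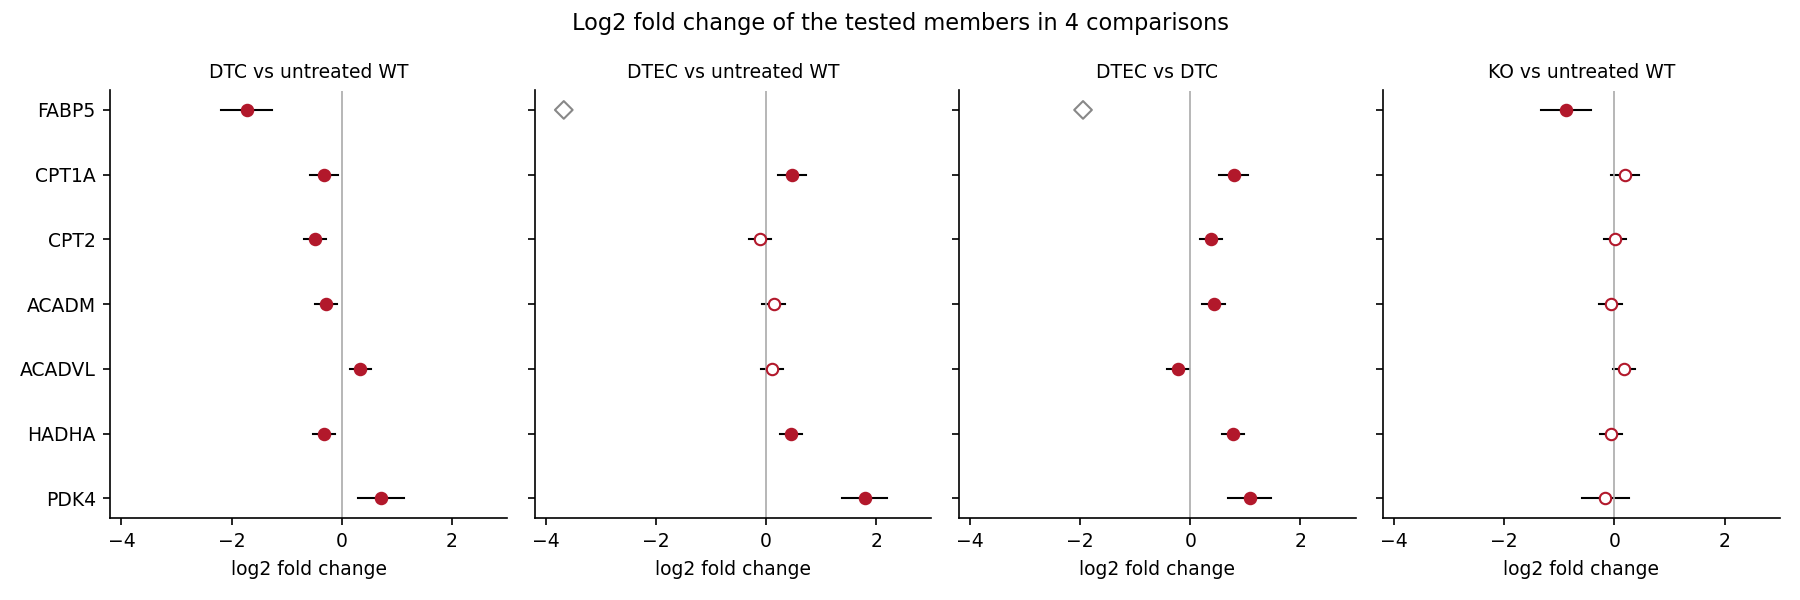
Log2 fold change (horizontal axis) of the 7 tested genes in 4 comparisons, with 95% confidence intervals as bars; filled circles are called at an adjusted p under 0.05, open circles are not, and grey diamonds are FABP5 values shown without a test. FABP5 lies lowest in each panel, at -3.67 in DTEC, while PDK4 lies highest in DTEC at 1.79; the DTC falls of CPT1A, ACADM and HADHA change sign when libraries are scaled by total counts alone.

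CPT1A, the carnitine palmitoyltransferase of the outer mitochondrial membrane and the main control point of the pathway, was at 95.3, 96.2 and 101 CPM in untreated WT. In DTC it was at 93.2, 66.6 and 74.4 CPM. In DTEC it was at 151, 135 and 119 CPM. All 3 DTEC libraries lay above every untreated WT and DTC library, while DTC lay below untreated WT with replicate 1 close to it. The rise in DTEC was 0.47 against untreated WT (SE 0.121, adjusted p = 0.00476, 1.38-fold) and 0.79 against DTC (SE 0.122, adjusted p = 8.45e-05). The DTC change against untreated WT was -0.32 (SE 0.121, adjusted p = 0.0302), was -0.43 without DTC replicate 1 and -0.16 without DTC replicate 2, and lost its call in 15 of 20 alternatives. Estimated counts of CPT1A were whole in 0 of 12 libraries (within 0.005), as happens where reads are divided between features.

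CPT2, the partner enzyme on the inner membrane, was at 40.9, 41.3 and 41.2 CPM in untreated WT. In DTC it was at 33.1, 27.1 and 28.3 CPM, below every other library. In DTEC it was at 38.2, 37.5 and 38.6 CPM, slightly below untreated WT without overlap. CPT2 fell by 0.48 in DTC (SE 0.0941, adjusted p = 0.000411) and was higher by 0.37 in DTEC than in DTC (SE 0.0941, adjusted p = 0.00413). Scaling by total counts alone reduced these to -0.13 and 0.18 and ended both calls, as did upper-quartile scaling. The DTEC difference from untreated WT was -0.11 (95% interval -0.31 to 0.09, adjusted p = 0.34), and its sign turned under both of those scalings.

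Other genes of the carnitine shuttle and of malonyl-CoA control mostly moved upward in DTC. Of 8 tested, 7 were called higher and 0 lower, with a median log2 fold change of 1.21 beside 0.06 over all genes, of which 34.0% were called higher. SLC22A5, the plasma membrane carnitine transporter, rose from 16.6 ± 1.37 to 44.9 ± 2.30 CPM (1.44, SE 0.0989, adjusted p = 1.57e-08). CROT, the peroxisomal carnitine octanoyltransferase, rose by 1.44 (SE 0.164, adjusted p = 2.49e-06), and MLYCD, which degrades malonyl-CoA, the inhibitor of CPT1, rose by 1.32 (SE 0.246, adjusted p = 0.000276). ACACB, which makes malonyl-CoA at the mitochondrion, rose as well, from a mean of 3.93 to 8.84 CPM (1.17, SE 0.159, adjusted p = 1.48e-05), and its DTEC mean was 4.03 CPM. In DTEC 3 were called higher and 1 lower than untreated WT, beside 26.0% and 26.3% of all genes, or 4 and 0 with total counts alone. That scaling called 5745 of 17115 genes higher in DTEC and 3269 lower. SLC25A20, the carnitine-acylcarnitine translocase, was higher by 0.83 in DTEC (SE 0.157, adjusted p = 0.000478), and CRAT, the carnitine acetyltransferase, by 0.74 (SE 0.12, adjusted p = 0.00015). SLC22A5 was at 13.6 ± 0.608 CPM in DTEC, lower than in DTC by 1.72 (SE 0.1, adjusted p = 8.16e-09).

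The dehydrogenases of the first step differed in direction. ACADVL, which acts on very long chains, was at 258, 245 and 245 CPM in untreated WT. In DTC it was at 292, 337 and 315 CPM, above every untreated WT and DTEC library. In DTEC it was at 258, 264 and 286 CPM, with the lowest of these level with the highest untreated WT library. ACADVL rose by 0.34 in DTC (SE 0.0911, adjusted p = 0.00449) and kept its call in all 20 alternatives, with 0.42 when DTC replicate 1 was left out. Its DTEC change against untreated WT was 0.11 (95% interval -0.08 to 0.31, adjusted p = 0.32). The difference between DTEC and DTC was -0.23 (adjusted p = 0.0481) and lost its call in 12 of 20 alternatives.

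ACADM, the medium-chain enzyme, was at 70.8, 59.0 and 60.9 CPM in untreated WT. In DTC it was at 54.2, 47.9 and 54.2 CPM and in DTEC at 67.2, 72.6 and 69.8 CPM. DTC lay below both other groups, and DTEC overlapped untreated WT. DTEC exceeded DTC by 0.42 (SE 0.0962, adjusted p = 0.0019), with the call kept in all 20 alternatives. The DTC change against untreated WT was -0.29 (SE 0.0962, adjusted p = 0.0161) and lost its call in 10 of 20 alternatives, among them the omission of untreated WT replicate 1 (-0.17) or DTC replicate 2 (-0.17), and it turned to 0.068 with total counts alone.

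HADHA, the alpha subunit of the mitochondrial trifunctional protein, was at 246, 217 and 217 CPM in untreated WT. In DTC it was at 193, 164 and 184 CPM. In DTEC it was at 307, 306 and 317 CPM. The 3 groups did not overlap, with DTEC highest and DTC lowest. HADHA was higher in DTEC by 0.45 against untreated WT (SE 0.0917, adjusted p = 0.000885, 1.37-fold) and by 0.78 against DTC (SE 0.0921, adjusted p = 7.56e-06). The DTC change against untreated WT was -0.33 (SE 0.0917, adjusted p = 0.00555), was no longer called when DTC replicate 2 (-0.21) or the first untreated WT library (-0.23) was left out, and was 0.027 with total counts alone.

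**Figure D3:**
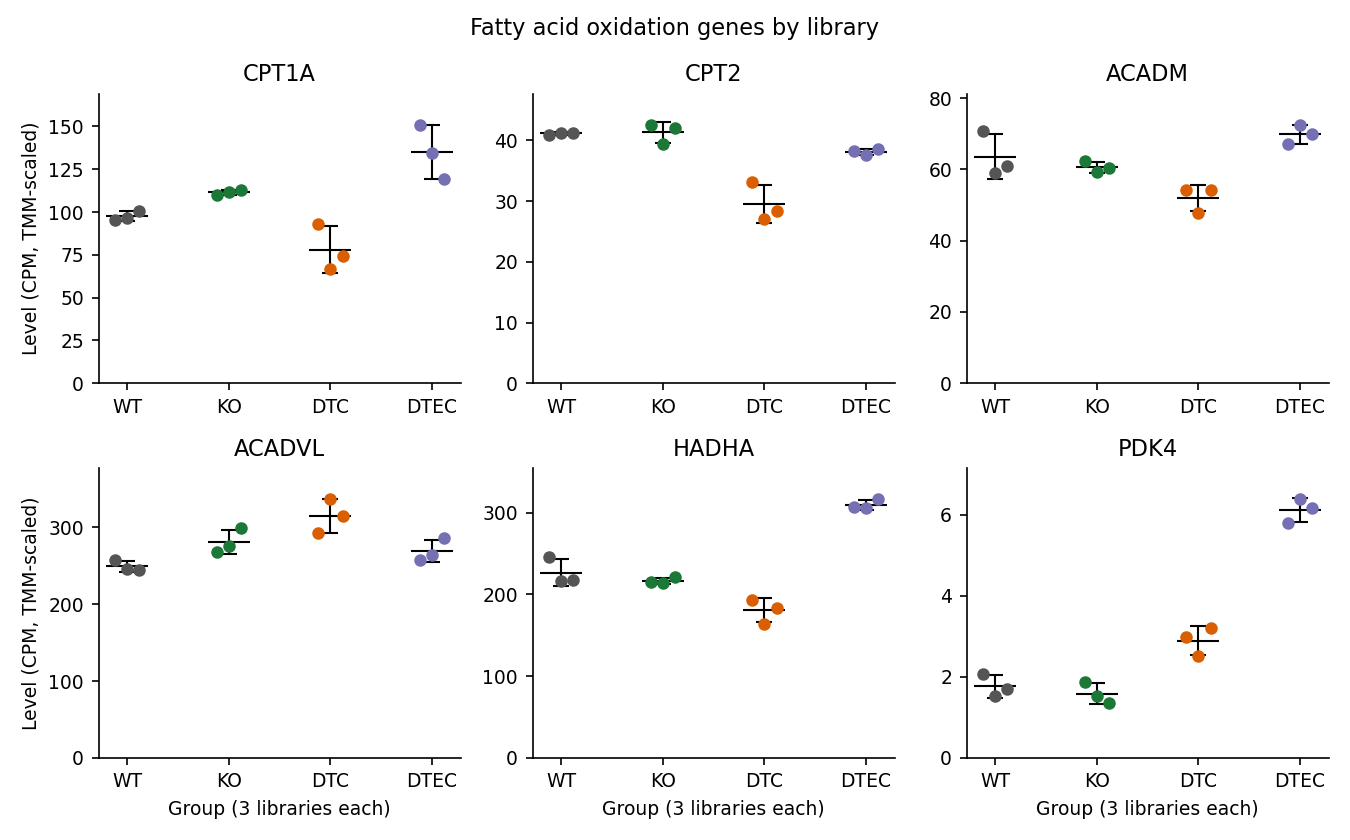
Level in CPM (vertical axes, each starting at 0) of the 6 tested genes other than FABP5 in the 3 libraries of each group (horizontal axes). Lines are means and bars the SD. PDK4 is near 6 CPM in DTEC and at most 2.06 CPM in untreated WT, HADHA and CPT1A are highest in DTEC, and ACADVL is highest in DTC.

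HADHB encodes the beta subunit that assembles with HADHA, and is singled out here after its values were seen. It was at 106, 92.7 and 92.4 CPM in untreated WT, at 118, 130 and 127 CPM in DTC, and at 169, 148 and 153 CPM in DTEC. HADHB rose in DTC by 0.37 (SE 0.0946, adjusted p = 0.00339), a call kept in all 20 alternatives. Both subunits were higher in DTEC than in untreated WT, HADHB by 0.69 (SE 0.0948, adjusted p = 3.23e-05).

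Among 14 further mitochondrial beta-oxidation genes with a test, DTC had 5 higher and 7 lower calls, or 5 and 3 with total counts alone. Their median log2 fold change was -0.28 beside 0.06 over all genes, of which 34.0% were called higher and 33.3% lower. HSD17B10, a hydroxyacyl-CoA dehydrogenase that is also a subunit of mitochondrial RNase P, fell by 1.08 (SE 0.123, adjusted p = 2.48e-06). ETFB, a subunit of the flavoprotein that takes electrons from the dehydrogenases, fell from 88.5 ± 2.47 to 45.1 ± 5.15 CPM in DTC (-0.97, SE 0.132, adjusted p = 1.45e-05) and stood at 112 ± 23.1 CPM in DTEC. ETFDH, which passes these electrons to ubiquinone, rose by 0.83 in DTC (SE 0.133, adjusted p = 7.47e-05). In DTEC 5 were called higher and 3 lower, beside 26.0% and 26.3% of all genes, or 7 and 1 with total counts alone. That scaling called 8008 of 17115 genes higher and 3702 lower in DTC, and 5745 and 3269 in DTEC. DECR1, needed for unsaturated fatty acids, rose from 14.8 ± 0.579 to 26.8 ± 3.10 CPM in DTEC (0.85, SE 0.11, adjusted p = 1.84e-05).

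Per kilobase of exon, the level of ACADVL and HADHA in untreated WT was 51.2 and 51.7 CPM, followed by FABP5 at 20.1, CPT1A at 14.8, ACADM at 13.3, CPT2 at 3.94 and PDK4 at 0.389. In DTEC the same scale gave HADHA 70.6, ACADVL 55.3, CPT1A 20.6, ACADM 14.6, CPT2 3.65, FABP5 1.58 and PDK4 1.35. FABP5 thus moved from the third place of 7 to the sixth. The exon length is that of the union of all annotated exons, which can exceed the transcript made in these cells.

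PDK4 showed the largest change among the 6 tested genes other than FABP5. It was at 2.06, 1.52 and 1.70 CPM in untreated WT. In DTC it was at 2.97, 2.5 and 3.20 CPM. In DTEC it was at 5.79, 6.38 and 6.16 CPM. The 3 groups did not overlap and stood in the order untreated WT, DTC and DTEC from low to high, and KO, at 1.86, 1.52 and 1.35 CPM, overlapped untreated WT. PDK4 rose by 0.71 in DTC (SE 0.192, adjusted p = 0.00442) and by 1.79 in DTEC (SE 0.19, adjusted p = 3.18e-06, 3.46-fold), in a comparison where 13.2% of all genes were called higher by at least 2-fold. The difference between DTEC and DTC was 1.08 (SE 0.183, adjusted p = 0.000196). All 3 calls were kept in all 20 alternatives, although the counts behind them were low, 45 to 224 per library.

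The PDK4 promoter is shown because PDK4 alone of those 6 genes was called with a change of at least 2-fold against untreated WT. The window is chr7:95596467-95596766 on the minus strand of GRCh38.p14 in RefSeq, 250 bases before to 50 after the annotated start, printed 5′ to 3′ with matches to a GC box (GGGCGG) and a CCAAT box (read here as ATTGG) in capitals.
PDK4: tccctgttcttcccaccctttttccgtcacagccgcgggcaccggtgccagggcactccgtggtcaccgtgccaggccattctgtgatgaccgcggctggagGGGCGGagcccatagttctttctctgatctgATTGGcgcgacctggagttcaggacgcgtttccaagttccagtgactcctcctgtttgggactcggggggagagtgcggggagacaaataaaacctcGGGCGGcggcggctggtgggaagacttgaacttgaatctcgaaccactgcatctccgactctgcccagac
The GC boxes lie at bases 103 to 108 and 231 to 236 of the window and the CCAAT box at bases 134 to 138. On either strand, GGGCGG was found in 44.9% and CCAAT in 34.6% of 34796 RefSeq promoters of this length. The nuclear receptor half-site AGGTCA (13.8% of promoters), the forkhead motif GTAAACA (3.42%) and the E-box CACGTG (7.20%) had no match in this window, which says only that these letters are not there. Among 15 promoter windows of 8 of the 10 genes, 6 held a GC box and 0 held AGGTCA or GTAAACA. The promoters of FABP5 and FABP4 were not analysed here.

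Of 13 other genes that govern pyruvate dehydrogenase, 8 were called lower and 1 higher in DTC, beside 33.3% and 34.0% of all genes. With total counts alone 6 were called lower and 4 higher, beside 3702 and 8008 of 17115 genes. The median was -0.48 beside 0.06 over all genes, or -0.12 beside 0.41 with total counts alone. PDHA1, the E1 alpha subunit that PDK4 phosphorylates, fell from 153 ± 9.25 to 63.7 ± 13.3 CPM (-1.26, SE 0.123, adjusted p = 5.20e-07), and DLAT, the E2 subunit, fell by 1.32 (SE 0.0929, adjusted p = 1.92e-08). MPC2, a subunit of the mitochondrial pyruvate carrier, was the 1 called higher, at 46.3, 129 and 102 CPM in DTC against 35.0 to 40.2 CPM in untreated WT (2.46-fold, adjusted p = 0.0007), with DTC replicate 1 far below the other DTC libraries. In DTEC 6 were called lower and 2 higher, beside 26.3% and 26.0% of all genes, or 5 and 3 with total counts alone. That scaling called 3269 of 17115 genes lower in DTEC and 5745 higher. PDHA1 remained lower, at 77.2 ± 2.31 CPM (-0.98, SE 0.122, adjusted p = 1.37e-05). PDK2, a more widely expressed kinase of the same family, rose from 27.9 ± 0.778 to 54.8 ± 10.2 CPM (0.97, SE 0.123, adjusted p = 1.53e-05).

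PPARGC1A was barely detected, with 0 to 4 counts in every library. Its relative PPARGC1B was measurable and fell. Untreated WT had 14.0 ± 0.447 CPM of it, DTC 3.50 ± 0.808 (-2.01, SE 0.154, adjusted p = 4.66e-08) and DTEC 4.69 ± 0.543 (-1.58, SE 0.151, adjusted p = 1.19e-06). Of 15 nuclear receptors and coactivators tested, 10 were called lower and 2 higher in DTC, with a median of -1.13. Over all genes 33.3% were called lower and 34.0% higher. With total counts alone 8 of the 15 were called lower and 3 higher, beside 3702 and 8008 of 17115 genes. PPRC1, the third member of the coactivator family, fell from 122 ± 6.97 to 31.4 ± 4.85 CPM (-1.96, SE 0.11, adjusted p = 2.42e-09), and NRF1, a factor for nuclear genes of the respiratory chain, fell by 1.98 (SE 0.111, adjusted p = 2.42e-09).

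The 3 PPAR genes differed in direction. PPARG, which is prominent in adipocytes and some epithelia, was at 165, 149 and 155 CPM in untreated WT, 44.5, 46.6 and 51.6 CPM in DTC and 115, 114 and 116 CPM in DTEC. The groups did not overlap, with a change of -1.72 in DTC (SE 0.0901, adjusted p = 1.31e-09) and of -0.44 in DTEC (SE 0.0874, adjusted p = 0.0007). PPARA, the receptor most tied to fatty acid oxidation in liver and heart, rose from 19.9 ± 1.98 CPM to 34.2 ± 10.4 CPM in DTC (0.78, SE 0.173, adjusted p = 0.00106) and 56.5 ± 7.09 CPM in DTEC (1.51, SE 0.174, adjusted p = 7.18e-06). PPARD, named after its values were seen, was the other of the 2 called higher in DTC, at 46.6 CPM against 27.9 CPM. In DTEC 4 of the 15 were called higher and 6 lower than in untreated WT, beside 26.0% and 26.3% of all genes. Against DTC 11 were called higher and 0 lower (8 and 1 with total counts alone), beside 28.8% and 26.6% of all genes. With total counts alone 3556 of 17115 genes were called higher in DTEC than in DTC and 5952 lower. NRIP1, a corepressor of nuclear receptors, was at 39.1 ± 6.48 CPM in DTC and 142 ± 17.6 CPM in DTEC (1.86, SE 0.128, adjusted p = 4.31e-08).

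Known PPAR targets outside oxidation were mostly near the detection limit, with 4 of 8 tested. ANGPTL4 reached 4 counts. UCP2, a mitochondrial carrier, rose from 5.46 ± 0.578 CPM to 19.2 ± 1.56 CPM in DTC (1.81, SE 0.14, adjusted p = 4.90e-08) and 18.9 ± 3.35 CPM in DTEC (1.79, SE 0.14, adjusted p = 1.97e-07). VNN1, a pantetheinase, had 2.11 to 2.80 CPM in DTC and was at 0 in all 3 untreated WT libraries, at least 27.1-fold higher against a floor of 3 counts per library. In DTEC it did not exceed 0.0764 CPM. PLIN2, a lipid droplet coat protein named after its values were seen, was called higher in DTC and DTEC, at 0.101 to 0.765 and 0.522 to 0.726 CPM against at most 0.169 CPM in untreated WT. These were the 3 genes called higher in DTC and, without VNN1, the 2 called in DTEC, with 0 called lower in either. Over all genes 34.0% were called higher in DTC and 26.0% in DTEC.

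The uptake receptor CD36, a scavenger receptor that takes up long-chain fatty acids, had 6, 1 and 2 counts in untreated WT, 4, 7 and 13 in DTC, 7, 10 and 7 in DTEC and 2, 0 and 7 in KO. These counts were too few for the test. Of 11 other genes of fatty acid uptake and activation tested, DTC had 2 higher and 5 lower calls, beside 34.0% and 33.3% of all genes. With total counts alone DTC had 4 and 3, beside 8008 and 3702 of 17115 genes. SLC27A4, the fatty acid transport protein that is also an acyl-CoA synthetase, fell from 82.8 ± 6.59 to 30.1 ± 1.96 CPM in DTC (-1.46, SE 0.0992, adjusted p = 1.41e-08) and to 38.1 ± 2.39 CPM in DTEC (-1.12, SE 0.0982, adjusted p = 5.31e-07). SLC27A2 rose from 23.8 ± 0.906 to 46.7 ± 0.691 CPM in DTEC (0.97, SE 0.0938, adjusted p = 1.32e-06), and SLC27A1 rose by 1.02 (SE 0.152, adjusted p = 7.13e-05). In DTEC 3 were called higher and 2 lower, beside 26.0% and 26.3% of all genes, or 6 and 1 with total counts alone. That scaling called 5745 of 17115 genes higher in DTEC and 3269 lower. ACSL5, a long-chain acyl-CoA synthetase, fell by 0.95 in DTC (SE 0.13, adjusted p = 1.51e-05) and was higher by 1.24 in DTEC than in DTC (SE 0.131, adjusted p = 2.56e-06).

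In the peroxisome, where very long and branched chains are shortened, DTC had 6 higher and 4 lower calls among 12 tested genes. Over all genes 34.0% were called higher and 33.3% lower. With total counts alone 7 of the 12 were called higher and 1 lower, beside 8008 and 3702 of 17115 genes. EHHADH, the bifunctional enzyme, rose from 1.18 ± 0.232 to 5.52 ± 1.63 CPM in DTC (2.23, SE 0.258, adjusted p = 3.01e-06) and to 3.01 ± 0.299 CPM in DTEC (1.35, SE 0.26, adjusted p = 0.000571). ACAA1, a thiolase, rose by 1.26 in DTC (SE 0.117, adjusted p = 3.19e-07). ACOX2, an oxidase of branched chains and bile acid precursors, was at 9.14, 7.65 and 8.94 CPM in untreated WT, 0.0676, 0.265 and 0.323 CPM in DTC and 3.20, 5.46 and 6.71 CPM in DTEC. It fell by 5.24 in DTC (SE 0.354, adjusted p = 1.42e-08). Its DTEC level was still lower than in untreated WT by a log2 fold change of -0.74 (SE 0.249, adjusted p = 0.022), a call lost in 6 of 20 alternatives, with -0.47 without DTEC replicate 1.

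Of 13 lipid droplet and lipolysis genes tested, DTC had 5 higher and 3 lower calls (7 and 2 with total counts alone), near the 34.0% and 33.3% of all genes. With total counts alone 8008 of 17115 genes were called higher in DTC and 3702 lower. In DTEC 7 were called higher and 2 lower, beside 26.0% and 26.3% of all genes. PLIN4, a droplet coat protein, had 7.95 to 9.98 CPM in untreated WT and, in DTC, 3.11 to 3.89 CPM, with 19.3 to 22.4 CPM in DTEC. It thus fell by 1.31 in DTC (SE 0.131, adjusted p = 6.46e-07) and rose by 1.19 in DTEC (SE 0.122, adjusted p = 2.33e-06). PNPLA2, the first triglyceride lipase of lipolysis, rose by 1.26 in DTC (SE 0.193, adjusted p = 5.70e-05), and G0S2, its inhibitor, fell by 1.90 (SE 0.3, adjusted p = 7.89e-05). PLIN1, the coat protein of adipocyte droplets, rose from 0.528 ± 0.0774 to 1.81 ± 0.215 CPM in DTEC (1.77, SE 0.28, adjusted p = 0.000116). PLIN1 and LIPE also stand in the adipocyte marker list, whose summed level was 2.69 to 4.18 CPM in untreated WT and, in DTC, 1.99 to 3.36 CPM, with 6.38 to 7.70 CPM in DTEC. The defining adipocyte genes ADIPOQ and LEP did not exceed 1 and 2 counts in any library. Their part in these changes was not tested.

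**Figure D4:**
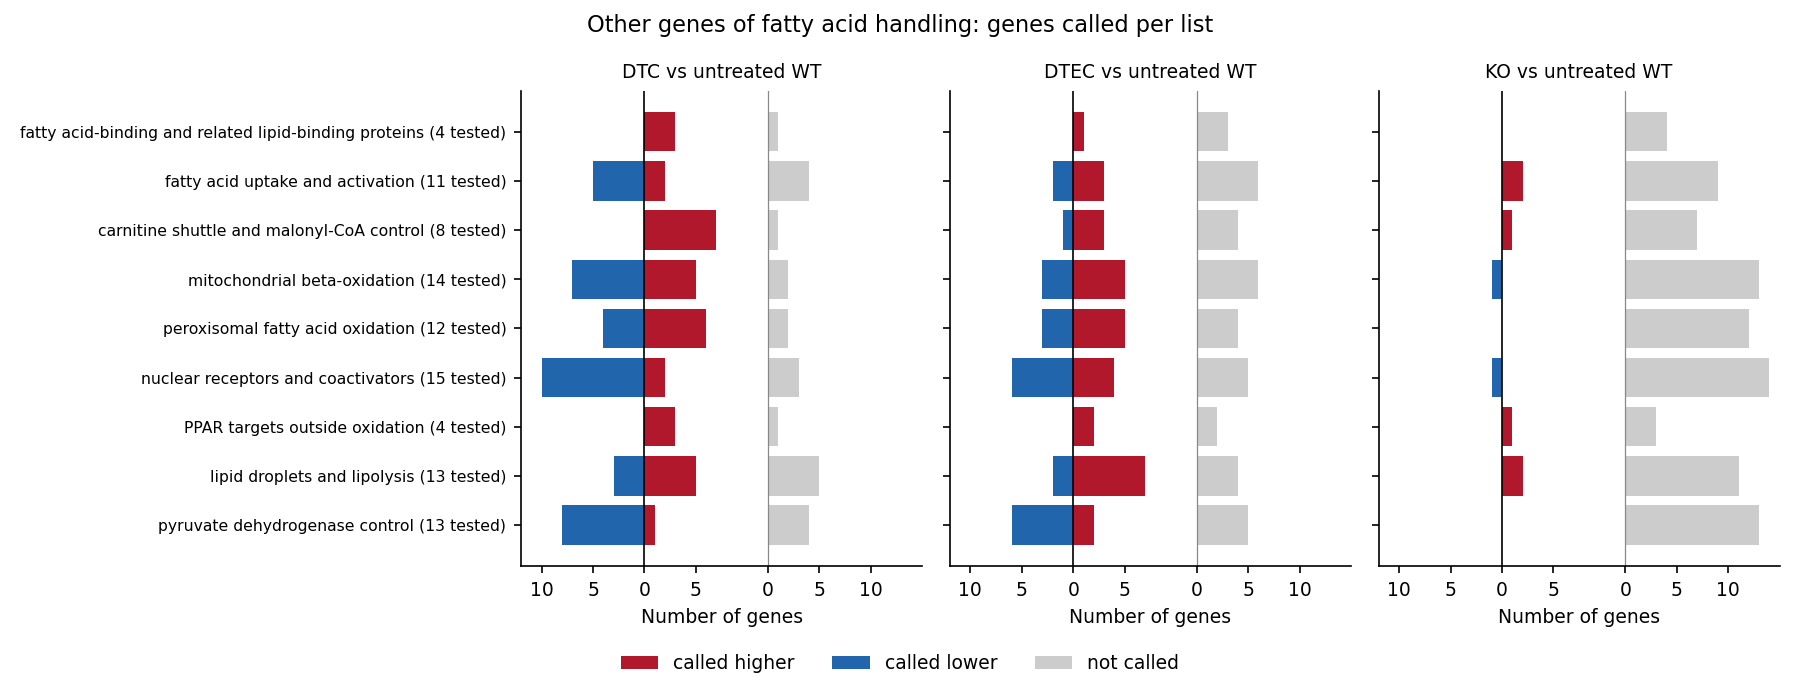
Number of genes (horizontal axes) called higher (red), called lower (blue) or not called (grey) in each list of fatty acid genes (vertical axis), in 3 comparisons with untreated WT under TMM scaling. In DTC the carnitine shuttle and malonyl-CoA list has 7 of 8 genes higher and the nuclear receptor list 10 of 15 lower. Few genes of any list are called in KO.

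Over all 9 lists of fatty acid genes, which hold 117 genes of which 94 were tested, DTC had 34 higher and 37 lower calls (44 and 23 with total counts alone). In DTEC 32 were called higher and 23 lower (42 and 17 with total counts alone), and between DTEC and DTC 38 were called higher and 21 lower (29 and 27). The shares called, 71 of 94 in DTC and 55 of 94 in DTEC, stand beside 67.3% and 52.3% of all genes. Between DTEC and DTC 59 of 94 were called, beside 55.4% of all genes. These shares are from TMM scaling. With total counts alone 8008 of all 17115 genes were called higher and 3702 lower in DTC. The same scaling gave 5745 and 3269 in DTEC, and 3556 and 5952 between DTEC and DTC.

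In the knockout line 0 of the 6 tested genes other than FABP5 were called in the fit of all libraries. For CPT1A and ACADVL all 3 KO libraries lay above all 3 untreated WT libraries. The share of all genes separated in this way is not given here. The log2 fold changes of CPT1A and ACADVL were 0.20 (95% interval -0.06 to 0.45, adjusted p = 0.455) and 0.17 (95% interval -0.02 to 0.37, adjusted p = 0.365). With only the KO and untreated WT libraries in the fit, both were called by edgeR (adjusted p = 0.0135 and 0.0228). The share of all genes called in that fit is not given here. Each of the 2 genes stayed uncalled in 19 of 20 alternatives. Those of CPT2, ACADM, HADHA and PDK4 lay between -0.16 and 0.01, with adjusted p values of 0.74 to 0.983. Of the 94 list genes, 6 were called higher and 2 lower in KO, beside 2.77% and 1.55% of all genes. When KO and untreated WT were fitted alone 25 list genes were called, and the share of all genes called in that fit is not given here. With 1 library left out 2 to 18 list genes were called. There were 18 without DTC replicate 1, 3 without untreated WT replicate 1, and 2 when any 1 of the KO libraries or untreated WT replicate 3 was missing. PLIN4 rose to 15.6 ± 0.282 CPM (0.79, SE 0.122, adjusted p = 0.00204), SLC27A3 by 0.70 (SE 0.148, adjusted p = 0.015), SLC27A1 by 0.68 (SE 0.152, adjusted p = 0.0205) and UCP2 by 0.65 (SE 0.141, adjusted p = 0.0172). PLIN5, a droplet protein of oxidative tissues named after its values were seen, was also called, at 0.702 to 1.20 CPM against 0.0597 to 0.260 CPM. TFAM, which packages and transcribes mitochondrial DNA, fell by 0.43 (SE 0.0899, adjusted p = 0.0138), and ACAA2, the mitochondrial thiolase, by 0.46 (SE 0.104, adjusted p = 0.0233). The eighth was CRAT, higher by 0.52 (SE 0.12, adjusted p = 0.0248). Leaving out 1 library ended these calls for SLC27A3, SLC27A1, UCP2, TFAM, ACAA2 and CRAT, each in 5 to 7 of 12 cases, with KO or untreated WT libraries involved every time but 1.

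The genes whose log2 CPM followed FABP5 most closely over the 12 libraries, among 9799 genes with a mean of at least 10 CPM, were TRBC2 (Pearson r = 0.985), PSMC2 (0.977), OVOL1 (0.977), HUS1 (0.976), LRR1 (0.976) and MRPS25 (0.972 on the same scale). TRBC2 is annotated as a T cell receptor constant segment, and whether the reads in these epithelial cells come from such a transcript was not tested. It was at 105 to 115 CPM in untreated WT, 81.9 to 88.9 in KO, 47.3 to 56.4 in DTC and 21.5 to 25.3 in DTEC. The most unlike were CORO2A (-0.982), ALDH6A1 (-0.982) and CBS (-0.981). ALDH6A1, a mitochondrial enzyme of valine and thymine breakdown, had a mean of 23.4 CPM in untreated WT and 93.7 CPM in DTEC. Among the oxidation genes, r with FABP5 was 0.23 for CPT2, -0.17 for ACADVL, -0.30 for ACADM, -0.51 for CPT1A and -0.60 for HADHA. The 12 points fall into 4 groups and share their libraries, so these correlations are descriptions of the group pattern.

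**Figure D5:**
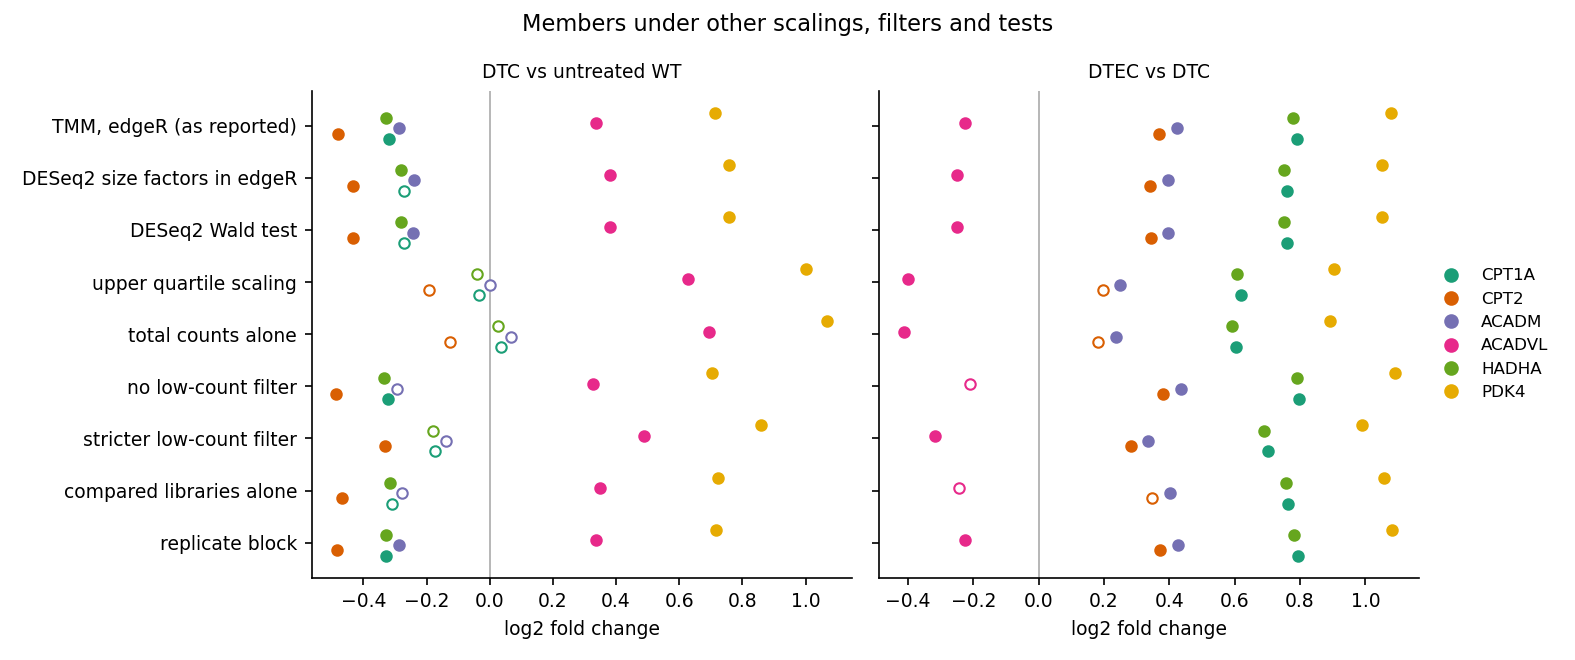
Log2 fold change (horizontal axis) of the 6 tested genes other than FABP5 under each scaling, filter and test (vertical axis). The panels are DTC against untreated WT and DTEC against DTC. Filled points are called at an adjusted p under 0.05 and open points are not. In DTC the values of CPT1A, ACADM and HADHA move from about -0.3 to just above 0 with total counts alone, while ACADVL and PDK4 stay above 0; between DTEC and DTC every gene keeps its sign.

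Markers of other cell types moved between the groups as well. The summed level of 5 fibroblast markers was 7.99 to 8.91 CPM in untreated WT and, in DTC, 55.0 to 57.7 CPM, with 11.1 to 14.1 CPM in DTEC, nearly all of it COL1A1, while DCN did not exceed 2 counts. That of 5 endothelial markers was 58.5 to 61.4 CPM in untreated WT and, in DTC, 42.3 to 50.2 CPM, with 122 to 142 CPM in DTEC. Its main genes differed in direction in DTC, where PECAM1 did not exceed 9.77 CPM against up to 35.2 CPM in untreated WT, with no overlap, and CDH5 was at 33.2 to 38.0 CPM against 24.6 to 29.4 CPM. That of 5 macrophage markers was 0.303 to 0.657 CPM in untreated WT and 8.06 to 11.0 CPM in DTC, mostly CSF1R, with CD163 at 0 in all libraries. The part of these genes in the changes above was not tested.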

How the data were processed

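Polyadenylated RNA of 12 PC9 libraries was prepared with a stranded kit and sequenced as 101 bp pairs, per the labels' protocols. The authors deposited 1 table of expected counts per Ensembl gene, unscaled; the submitters' processing notes name Bowtie2 2.5.2, RSEM 1.3.1, DESeq2 1.40.2 and GRCh38. The annotation release, the strand setting and any filter are not given in the sources used here. Of values in genes with a mean of at least 10, 71.4% were whole numbers (within 0.005).

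Expected counts were rounded and tested with edgeR 4.0.16 (R 4.3.3, limma 3.58.1; filterByExpr, TMM factors of 0.892 to 1.16, robust quasi-likelihood F tests, all 12 libraries in 1 fit). P-values were adjusted over 17115 genes by the Benjamini-Hochberg method. A symbol was found for 62700 of 62754 rows. Coordinates and exon lengths come from GENCODE 29, and promoters from RefSeq. The fit was tested on simulated data in which few genes changed, as many up as down, so that test does not check the scaling.

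The members and lists were chosen with earlier results of these data known. Text names all 10 members and, per list and comparison, up to 3 called genes with the largest change and a mean of at least 1 CPM. It also names the 6 genes most like FABP5 and the 3 most unlike it, at a mean of at least 10 CPM, and FABP5 pseudogenes, TDP1 and promoters of members changed by at least 2-fold. Called genes outside this rule are marked where named, and genes of the lists with too few counts for a test are named only for their counts. Some genes that the rule names are not reported here.

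Alternatives were total counts alone, upper-quartile scaling, DESeq2 size factors, the DESeq2 1.42.0 Wald test, no filter, a filter of 50 counts in 3 libraries, the compared libraries alone, a replicate block, each of 12 libraries left out, and FABP5 summed with its pseudogenes. All libraries are labelled as 1 batch, so no within-batch values exist. Intervals cover the spread between libraries, and floors of 3 counts cover counting error only.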

Additional observations from a re-analysis of the deposited data

Results flagged for a closer look

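The genes below are listed because the 7-day and 28-day effects of erlotinib differed by a direct edgeR test of DTEC against DTC. That test called 55.4% of all genes, so a call by itself does not set a gene apart. Values are log2 differences, DTEC minus DTC, and both effects share the untreated WT libraries. Among the tested members other than FABP5 the difference was 0.79 for CPT1A, 0.37 for CPT2, 0.42 for ACADM, -0.23 for ACADVL, 0.78 for HADHA and 1.08 for PDK4. The adjusted p was between 7.56e-06 for HADHA and 0.0481 for ACADVL. The ACADVL call was lost in 12 of 20 alternatives and the CPT2 call in 3 of 20.

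Among the other list genes, only those picked by the naming rule given above were searched, not all that were tested. Of these, the genes called in opposite directions at the 2 times were taken. The share of all genes with such opposite calls is not given here. Lower in DTC and higher in DTEC were PLIN4, with a difference of 2.5, ZNF704 with 1.89, NRIP1 with 1.86, ETFB with 1.31, PDK3 with 1.26, ACSL1 with 0.98 and HSD17B4 with 0.87. Higher in DTC and lower in DTEC were MPC2, with a difference of -1.98, and SLC22A5 with -1.72. With 1 library left out, the DTC calls of ACSL1 and HSD17B4 were lost in 1 and 3 of 12 cases, and the DTEC calls of ETFB, MPC2 and SLC22A5 in 8, 10 and 6. Total-count and upper-quartile scaling each ended the DTC calls of ACSL1, HSD17B4 and ZNF704 and the DTEC calls of MPC2 and SLC22A5, so the opposite calls of these 5 genes hold under some scalings only. The MPC2 level in DTC ranged from 46.3 CPM in replicate 1 to 129 CPM in replicate 2.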

How the results depend on the processing

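Of 522 alternative values for the members, without the untested 28-day values of FABP5, 458 kept both direction and side of the threshold, 49 lost the call, 5 gained it and 10 changed sign. With total counts alone the sign changed for CPT1A (0.035), ACADM (0.068) and HADHA (0.027) in DTC, for CPT2 in DTEC (0.058), and for ACADM (0.0016) and HADHA (0.0058) in KO. Upper-quartile scaling changed ACADM in DTC (0.00014) and CPT2 in DTEC (0.0044). With 1 library left out, ACADM in KO ranged from -0.096 to 0.032 and HADHA from -0.072 to 0.015, above 0 only without untreated WT replicate 1. Of the 6 members called in DTC, 2 were called with total counts alone, 2 with upper-quartile scaling and 3 with the stricter filter, and 3 to 6 with 1 library left out (3 without DTC replicate 2 or untreated WT replicate 1). Total counts alone called 5 members in DTEC in place of 3, beside 9014 of 17115 genes. In DTC total counts alone called 11710 of these genes and upper-quartile scaling 11646. The share of all genes called under the stricter filter is not given here. The fit of the compared libraries alone called 2 members and 25 list genes in KO in place of 0 and 8. DESeq2 called 13 list genes in KO, and left-out libraries gave 2 to 18 (18 without DTC replicate 1, 2 without any 1 of the KO libraries or untreated WT replicate 3). The shares of all genes called in these KO fits are not given here, and the causes were not tested. Replicate numbers did not pair the samples (r of deviations -0.03 to 0.18 over 18 pairs, 4 over 0.1), and the replicate block called 6 members in DTC, 3 in DTEC, 6 between them and 0 in KO, and 9 list genes in KO. The counts of FABP4, CD36 and PPARGC1A, at most 13 per library, set no useful limit on their change.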
